A study of Mus musculus with 15 samples.

Results

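The 369 regions described here are promoters of protein-coding genes that carried a called H3K4me3 peak in 2HG-treated wild-type cells (WT-HG) and in neither untreated wild-type cells (WT-UT) nor untreated CLPP knockout cells (KO-UT). They were chosen by the peak calls themselves: overlapping peaks of the 3 lists were merged into 15110 regions on chromosomes 1 to 19 (mouse build GRCm39), and a region was kept when it held a WT-HG peak alone and reached within 2000 bp of the start of a protein-coding transcript. Of all merged regions, 12913 lay at such a start, and of the 709 regions with a WT-HG peak alone, 369 (52.0%) did. Membership, peak area and peak p-value are therefore descriptions, and none of them was tested.

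H3K4me3 was profiled by ChIP-seq in mBA cells, brown adipocytes differentiated from preadipocytes of mouse brown fat, with 4 ChIP samples in each of the 3 conditions and 1 input library per condition. WT-UT cells were wild type and carry no treatment in the labels. WT-HG cells were wild type and received octyl-d-2-hydroxyglutarate, a cell-permeable form of the oncometabolite 2HG, in DMSO. KO-UT cells lacked CLPP, the mitochondrial matrix protease, received no 2HG and grew with added uridine, so genotype and uridine cannot be told apart. All were immortalised with SV40 large T antigen and came from 1 line per genotype, derived from pooled animals, although the labels call them primary. The labels do not say that the replicates of a condition came from separate lines, and the authors called peaks on the 4 replicates together, so each condition is represented by 1 peak list and no value below has a replicate error.

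Trimethylation of lysine 4 on histone H3 marks active and poised promoters, usually on the nucleosomes just downstream of the transcription start. CpG islands attract the methyltransferase complexes that place the mark, whereas promoters poor in CpG tend to carry it mainly when transcribed. The mark is removed by KDM5 demethylases, which need 2-oxoglutarate as a co-substrate, and 2HG is a competitive analogue of 2-oxoglutarate. In adipocytes the mark is found at the promoters of lipid storage, lipolysis and thermogenic genes.

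The lists held 12342 (WT-UT), 14059 (WT-HG) and 15118 (KO-UT) peaks, with median areas under the curve of 2970, 5027 and 5744. Every list stopped at the same smallest area, so a region without a call can still have signal below that limit. The lists give no read counts, so the depth is unknown, and areas were not scaled between lists. Sizes are therefore also given as the percentile within the peak's own list. Of the defining markers, Pparg and Cebpa had promoter peaks in all 3 lists, as did the brown-fat factors Prdm16 and Zic1. Cidea and Plin1 had them in WT-HG and KO-UT. Ucp1, Ppargc1a, Dio2, Adipoq, Fabp4 and Lep had none in any list, while the preadipocyte genes Pdgfra, Pdgfrb, Dlk1 and Col1a1 had them in all, so the marks do not show a fully mature brown adipocyte. Ebf2 and Thy1 had a peak in KO-UT alone. Dcn, also a preadipocyte gene, had none. No immune marker of 5 had a peak in any list. Markers of other cell types were mixed. The neuronal Tubb3 and Map2, endothelial Kdr and epithelial Cdh1 had peaks in all 3 lists. Epcam (epithelial) had them in WT-HG and KO-UT, and Krt18 (epithelial), Rbfox3 (neuronal) and Myod1 (muscle) in KO-UT alone. The muscle, neuronal, endothelial and epithelial markers Myog, Myf5, Ckm, Acta1, Snap25, Pecam1, Cdh5, Tek and Krt8 had none.

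CpG content is the sequence feature on which the comparisons with other promoters turn, so the 150 bases before the nearest start are shown for 9 members with large areas, with CpG dinucleotides in capitals and on the strand of transcription. They were taken from GRCm39, and they were limited to stretches free of annotated coding exons and UTRs with the peak summit within 500 bp. The first set belongs to zinc finger genes, the gene list with the most members, at chr7:12614954-12615103 (plus strand), chr13:67417202-67417351 (minus strand) and chr17:33311282-33311431 (plus strand).
Zfp128: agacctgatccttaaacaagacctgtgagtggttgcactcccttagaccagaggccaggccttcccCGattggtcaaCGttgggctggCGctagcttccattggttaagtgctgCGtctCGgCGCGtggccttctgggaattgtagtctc
Zfp458: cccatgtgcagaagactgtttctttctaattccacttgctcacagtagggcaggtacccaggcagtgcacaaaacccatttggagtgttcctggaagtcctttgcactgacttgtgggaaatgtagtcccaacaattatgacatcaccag
Zfp563: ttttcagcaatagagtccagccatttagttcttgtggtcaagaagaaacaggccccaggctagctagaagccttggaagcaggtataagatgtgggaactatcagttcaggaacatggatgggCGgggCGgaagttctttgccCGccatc
Zfp128 held 7 CpG, Zfp458 none (0) and Zfp563 3. The second set shows starts that met the usual CpG-rich criterion over 500 bp (GC of at least 50% and an observed over expected CpG ratio of at least 0.6), at chr11:97657407-97657556 (minus strand), chr5:31102936-31103085 (minus strand) and chr16:20367177-20367326 (plus strand).
Cwc25: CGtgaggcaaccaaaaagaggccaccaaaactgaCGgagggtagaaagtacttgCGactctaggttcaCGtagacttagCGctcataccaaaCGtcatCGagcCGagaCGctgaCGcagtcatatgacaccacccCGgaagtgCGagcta
Cgref1: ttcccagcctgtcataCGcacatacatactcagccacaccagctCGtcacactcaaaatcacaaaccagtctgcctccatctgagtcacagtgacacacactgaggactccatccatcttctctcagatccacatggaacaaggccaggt
Abcf3: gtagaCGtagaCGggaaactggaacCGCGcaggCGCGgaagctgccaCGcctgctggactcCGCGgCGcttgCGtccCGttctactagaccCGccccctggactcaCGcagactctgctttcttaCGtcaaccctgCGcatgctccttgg
Here Abcf3 held 16 CpG, Cwc25 12 and Cgref1 2, so the CpG of Cgref1 lie mostly on the other side of its start. The third set did not meet the criterion, at chr3:151543268-151543417 (minus strand), chr14:52121818-52121967 (plus strand) and chr15:43733455-43733604 (minus strand).
Ptgfr: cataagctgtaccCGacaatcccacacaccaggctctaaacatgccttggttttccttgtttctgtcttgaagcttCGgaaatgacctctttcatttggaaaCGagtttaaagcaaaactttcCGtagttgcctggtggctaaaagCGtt
Mettl17: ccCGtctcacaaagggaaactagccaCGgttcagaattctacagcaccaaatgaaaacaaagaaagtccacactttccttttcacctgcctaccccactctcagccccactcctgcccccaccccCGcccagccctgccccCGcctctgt
Tmem74: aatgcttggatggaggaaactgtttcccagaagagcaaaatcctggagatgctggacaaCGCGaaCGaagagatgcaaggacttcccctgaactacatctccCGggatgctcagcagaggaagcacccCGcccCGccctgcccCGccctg
These held 5 (Ptgfr), 4 (Mettl17) and 7 (Tmem74) CpG. The letters show that the stretches before these 9 starts span a wide range, from an island-like one to one without a single CpG. They are the bases before a start and not those under the peak. The region of Cwc25 (chr11:97656731-97657403) lies outside its printed stretch, and that of Abcf3 (chr16:20366580-20367190) covers only the first few of its bases.

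The members were small peaks. Each consisted of 1 WT-HG peak, with a median area of 319 (lowest 200.1, highest 1889), and all 369 lay below the median area of the WT-HG list. In percentiles of that list the median member stood at 5.84 and the highest at 26.5. The −log10 p at the summit had a median of 3.96 and ranged from 2.90 to 9.16. It reached 5 in 61 members (16.5%, 95% Wilson interval 13.1 to 20.7, which covers counting error only), and an area of 1000 or more was reached by 14. Median width was 382 bp, with a range from 35 to 1089 bp. By comparison, the 853 coding promoters with a KO-UT peak alone had a median percentile of 10.6 in their list, the 1243 with WT-HG and KO-UT peaks but no WT-UT peak one of 16.2 in the WT-HG list, and the 10204 marked in all lists one of 62.4. The members thus sat nearest to the calling limit of these classes.

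The members fell into 2 kinds of neighbourhood, described here with no test. A WT-UT or KO-UT peak lay within 1000 bp of 152 members (41.2%), of which 118 had peaks of both lists there, 26 a KO-UT peak only and 8 a WT-UT peak only. These neighbours stood mid-list at the median, with a percentile of 58.4 for WT-UT and 55.6 for KO-UT, but not all were large. Another WT-HG peak also lay within 1000 bp of 137 of the 152, with a median percentile of 59.9, so most of these members stood beside a promoter marked in all conditions. The other 217 members had no WT-UT or KO-UT peak that close, and 11 of them had another WT-HG peak within that distance. Areas were alike in both kinds, with a median of 308 beside another peak and 326 away from one. The closest calls were at Rcn3, an endoplasmic reticulum calcium-binding protein, 45 bp from a WT-UT peak, and at Lrfn4, a synaptic adhesion protein, 13 bp from a KO-UT peak. Ccs and Hivep2 lay 71 and 79 bp from a WT-UT peak, and Uncx and Ncoa2 24 and 35 bp from a KO-UT peak. The WT-UT neighbours of Rcn3, Ccs and Hivep2 stood at percentiles 5.40, 11.2 and 99.6 of their list. The KO-UT neighbours of Lrfn4, Uncx and Ncoa2 stood at 94.7, 14.5 and 98.9.

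**Figure D1:**
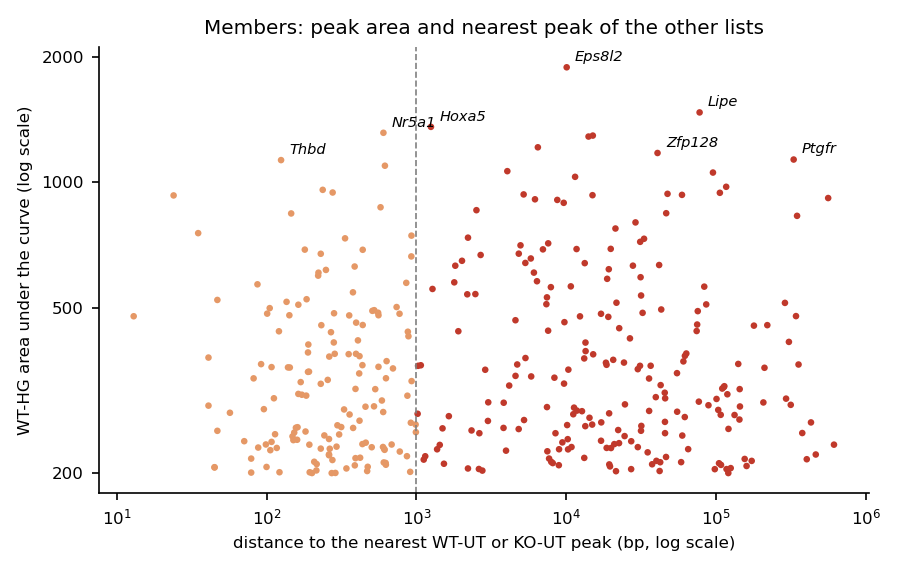
Area under the curve of the WT-HG peak (y axis, log scale, unscaled units) against the distance from the member to the nearest WT-UT or KO-UT peak (x axis, bp, log scale) for the 369 members; orange points lie within 1000 bp of such a peak (n = 152) and red points do not (n = 217), with the dashed line at 1000 bp. Areas run from 200.1 to 1889 (Eps8l2) and areas of 1000 or more occur on both sides of the line.

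The position of the mark also varied. Among the 217 members away from other peaks, the median summit lay 170 bp downstream of the nearest start and 168 (77.4%) were downstream. Among the 152 beside another peak, the median was 128 bp, with 90 (59.2%) downstream and the remaining 62 upstream. Over all members the start itself lay inside the region in 112 (30.4%) and the summit was within 500 bp of it in 253 (68.6%). Summits fell in an intron in 140 members, in an untranslated exon in 104, in a coding exon in 70, and outside any coding transcript in 55. The nearest start was that of the Ensembl canonical transcript in 171 members (46.3%) and an alternative start in the other 198. At the edge of the window, the members just inside were Ptprs (1983 bp from a start, area 240.1), Scarf2 (1951 bp, area 648) and Lrfn4 (1914 bp, area 476). The nearest WT-HG-only regions just outside were those at Midn (2007 bp, area 401), Ddr1 (2025 bp, area 203) and Avp (2067 bp, area 230).

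**Figure D2:**
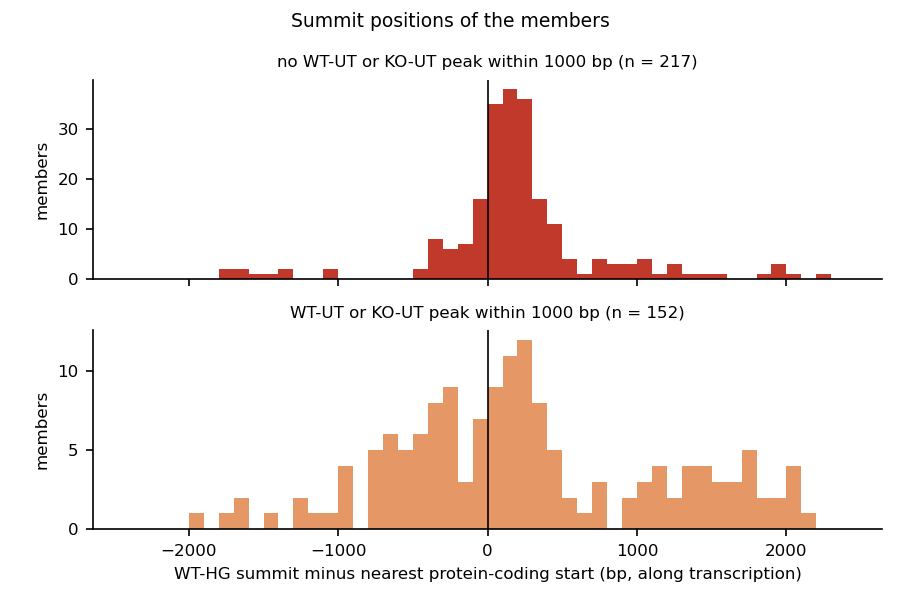
Number of members (y axis) by position of the WT-HG summit relative to the nearest protein-coding start (x axis, bp along transcription, bins of 100 bp), for the 217 members without (top) and the 152 with (bottom) a WT-UT or KO-UT peak within 1000 bp. The upper panel peaks just downstream of the start (median 170 bp) and the lower one spreads to both sides (median 128 bp, 62 upstream).

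The members reached into the windows of 419 protein-coding genes, 2.05% of the 20445 on chromosomes 1 to 19. That share is the background against which gene lists are read below. For KO-UT-only and for shared WT-HG and KO-UT regions it was 4.27% and 6.39%. More than 1 gene was within reach of 57 members. Of the 419 genes, 211 (50.4%) had WT-UT and KO-UT peaks at one of their starts, 31 a KO-UT peak and no WT-UT peak, 9 a WT-UT peak and no KO-UT peak, and 168 (40.1%) neither. Genes marked in WT-HG alone over all their starts, whatever the merged region, numbered 170, or 0.831% of all coding genes. For the majority of the genes, therefore, the WT-HG-only region was an additional stretch at a gene already marked in another condition.

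The largest area belonged to Eps8l2, an EPS8-family protein linked to actin remodelling, at chr7:140918533-140919084 (area 1889, percentile 26.5, summit 49 bp downstream of the start in an untranslated exon). Its nearest WT-UT and KO-UT peaks were 10066 and 10043 bp away. Lipe, which encodes hormone-sensitive lipase and releases fatty acids from stored lipid, was next, at chr7:25094642-25095107 (area 1472, percentile 22.5). Its summit lay in an intron 913 bp downstream of an upstream start. No WT-UT peak lay within 77320 bp and no KO-UT peak within 77426 bp, and none of its starts was marked in either list. Hoxa5, a positional homeobox factor, had an extra region at chr6:52182696-52183463 (area 1359), 1129 bp from its start, and its main promoter was marked in all 3 lists. Nr5a1, the nuclear receptor that drives steroidogenic genes, had a region over its start at chr2:38601596-38602216 (area 1315), with a KO-UT peak 602 bp away and no WT-UT peak within 67647 bp.

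Several other large members were marked in WT-HG alone. Cwc25, a splicing factor, had an area of 1295 and its nearest WT-UT peak was 15001 bp away. Ccdc88b, the widest member at 1089 bp, had an area of 1213. Ptgfr, the prostaglandin F receptor, was among the most isolated, with an area of 1134 and no WT-UT peak within 327928 bp. Tmem74, an autophagy-related membrane protein, had an area of 916 and no KO-UT peak within 557000 bp. Cgref1, Abcf3, D430019H16Rik, Tmem171, S2bpcox16, Tapbpl and Cyb561d2 had areas from 910.0 to 1063 and no WT-UT or KO-UT peak at any start. By contrast Thbd (thrombomodulin, area 1130), Mettl17 (a mitochondrial ribosome assembly factor, area 959) and Bmp4 (area 945) lay 125, 426 and 724 bp from a WT-UT peak. Clec11a, a bone growth factor of the lectin family (area 1096), lay 799 bp from a WT-UT and 616 bp from a KO-UT peak. The other 2 widest members were Plekhf1 (902 bp) and Scarf2 (882 bp). The smallest areas were those of Tnks1bp1, 2010315B03Rik and Vps28, which all rounded to 200.1.

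**Figure D3:**
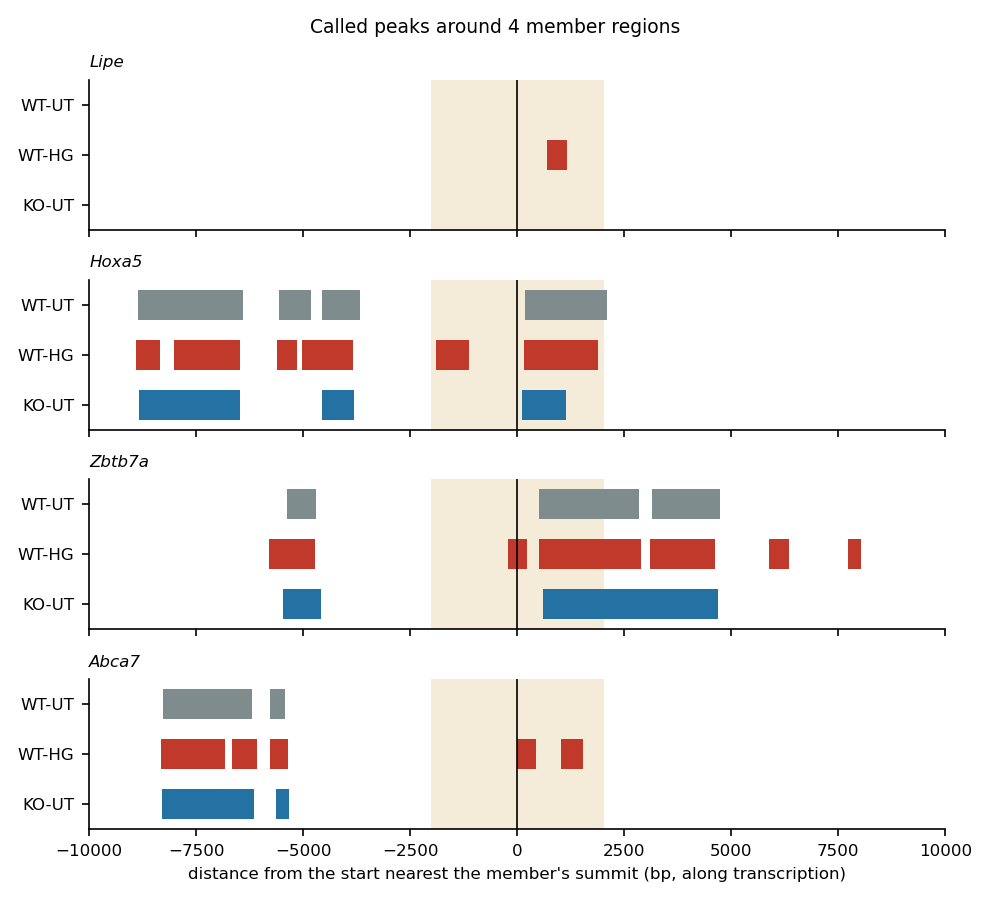
Called peaks (bars) of WT-UT, WT-HG and KO-UT around the start nearest to the member's summit for Lipe, Hoxa5, Zbtb7a and Abca7 (x axis, bp along transcription; the shaded band is the window of 2000 bp either side). Lipe has a single WT-HG bar, and Abca7 has 2 WT-HG bars at and downstream of its start. Hoxa5 and Zbtb7a also carry peaks of all 3 lists. The extra bar of Hoxa5 lies 1312 bp from a WT-UT peak, and those of Zbtb7a 281, 1144 and 2996 bp. These 4 loci were picked as examples after their values were seen.

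Genes of the C2H2 zinc finger family, which includes the KRAB factors that silence transposable elements, formed the largest group, with 26 of 511 genes (5.09%, beside 2.05% of all coding genes). The list is defined by symbol and so also takes in Zfp36, a CCCH-type RNA-binding protein. The same list had 21 genes (4.11%) with a KO-UT-only and 32 (6.26%) with a shared region, beside the 4.27% and 6.39% above. Of the 26 genes, 21 had no WT-UT or KO-UT peak at any start. Their 28 regions lay mostly apart from other peaks, since 25 (89.3%) had no WT-UT or KO-UT peak within 1000 bp, against 192 of the other 341 members (56.3%). Their summits had a median position of 152 bp downstream of the start, and their median area was 437 (209.9 to 1176) against 309 in the other members. The median observed over expected CpG ratio at their starts was 0.431, against 0.627 in the other members, and 8 of the 28 met the CpG-rich criterion. Most were on chromosomes 7 (7 regions), 17 (5), 10 (4) and 13 (3). These chromosomes hold 109, 51, 13 and 48 of the 511 listed genes. On chromosome 10 the regions belonged to 2 genes, with 3 of them at Zbtb7a. None of these contrasts was tested, because the family was singled out with earlier results in view.

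Single zinc finger genes show the pattern. Zfp128 on chromosome 7 had an area of 1176 (percentile 19.6), with its summit at 226 bp and no WT-UT peak within 40603 bp. Zfp458 on chromosome 13 had an area of 1055 and a ratio of 0.332, with no WT-UT peak within 94930 bp. Zfp112 had an area of 935 and Zfp563 one of 933. Zscan21 (area 719), Zfp712 (692), Zfp93 (630), Zfp13 (514), Zfp420 (490.2), Zfp566 (483), Zfp956 (461), Zfp120 (413), Zfp40 (365), Zfp879 (328), Zfp97 (324), Zfp429 (302), Zfp947 (246), Zbtb8b (235) and Zfp933 (209.9) were also unmarked in both other lists. Zfp35 (534) was unmarked in both as well, with its summit at -1761 bp, upstream of the start. Zbtb7a, Zbtb39, Zfp282, Zfp608 and Zfp36 were marked in all 3 lists at one of their starts. Among these Zbtb7a, a repressor of the POK family, held 3 WT-HG-only regions with areas of 412, 267 and 219.6, and the first of them lay 281 bp from one of the strongest WT-UT peaks (percentile 98.5). Zfp575, itself unmarked in both other lists, shared its region with Ethe1, a mitochondrial sulfur dioxygenase (area 607).

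Developmental regulators were reached at low counts, with Hox and other homeobox genes furthest above the 2.05% background. The members took in 3 of 39 Hox genes (7.69%; Hoxa2, Hoxa5 and Hoxd3) and 5 of 113 other homeobox genes (4.42%; Barhl1, Onecut3, Phox2a, Pou4f1 and Uncx). They also took in 1 of 37 Sox, Gata and T-box genes (2.70%; Sox2) and 1 of 63 basic helix-loop-helix genes (1.59%; Twist1). Of 45 nuclear receptors 1 was reached (2.22%; Nr5a1), and of 42 Fox genes 0. KO-UT-only regions held 11 Hox and 28 other homeobox genes, and shared regions 16 and 46, or 41.0% and 40.7% of these lists beside a background of 6.39%. Among the members Phox2a, a factor of autonomic neurons (area 669), and Barhl1 (area 297) were unmarked in both other lists. Uncx (area 929.8), Onecut3 (258), Sox2 (218) and Hoxd3 (249) had a KO-UT peak at a start but no WT-UT peak. Hoxa2 (328), Twist1 (318) and Pou4f1 (237) were already marked in WT-UT.

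Secreted signals followed the same pattern of extra regions. Of 46 Wnt ligands and receptors 5 (10.9%) were reached. The same list had 5 genes (10.9%) with a KO-UT-only and 9 (19.6%) with a shared region, beside backgrounds of 4.27% and 6.39%. Wnt10a, Wnt10b, Wnt5a and Fzd7 were marked in all 3 lists at one of their starts, and Wnt1 in WT-HG and KO-UT. Wnt10b, which restrains adipogenesis, had an area of 454, and Wnt1 lies in the same window. Wnt10a had 372, Wnt5a 427 and the receptor gene Fzd7 289, with a WT-UT peak 477 bp from Fzd7 and 681 bp from Wnt10a. Of 46 FGF, BMP and GDF ligand genes, 3 were reached (6.52%): Bmp4 (945), Tgfb3 (307), both marked in all lists, and Fgf12 (309), which had no WT-UT peak. KO-UT-only regions held 4 genes of this list (8.70%) and shared regions 6 (13.0%). With counts this small, a share of 3 or 5 of 46 rests on a few windows.

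Genes of adipocyte lipid handling were reached at shares near the 2.05% of all coding genes. Lipe was the only one of 31 uptake, droplet and adipokine genes (3.23%), and Agpat1, an acyltransferase of triglyceride synthesis, the only one of 34 fatty acid and triglyceride synthesis genes (2.94%). Agpat1 had an area of 486 in a region shared with Rnf5, 555 bp from a WT-UT peak. No gene was reached of the 33 listed for cholesterol synthesis and transport, 35 for fatty acid oxidation or 27 adipogenic transcription factors. In lists of this size the background share comes to less than 1 gene. The lists were drawn up by symbol and cover only their own genes. The members Abca7, Cyp46a1, Gramd1a and Lrp8, named here in addition, were on none of these lists. The cholesterol and the fatty acid oxidation lists had shared regions at 4 and 5 genes, and 27 and 25 of their genes had a WT-UT peak. Of 15 genes listed under 2HG production and removal, only Shmt2, the mitochondrial serine hydroxymethyltransferase, was reached (6.67%). It held 2 regions (areas 674 and 227), at 1010 and 154 bp from its start, and no other peak list marked it. The paper does not name Shmt2 among the enzymes that make or degrade 2HG. Shmt2 and Trib3, a pseudokinase of the ATF4 response (area 524, 376 bp from a WT-UT peak), were the 2 of 27 integrated stress response genes (7.41%). No gene was reached of 24 histone demethylases, 32 other 2-oxoglutarate dioxygenases or 19 genes of H3K4 methyltransferase complexes.

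Mitochondrial genes were reached at small peaks. Among 78 mitochondrial ribosomal protein genes 4 were members: Mrpl32 (483), Mrpl30 (335, shared with Mitd1), Mrpl48 (246) and Mrpl35 (226). That was 5.13% of the list, beside 2.05% of all coding genes and 5.09% of the zinc finger list. Of these, Mrpl35 was unmarked in WT-UT and KO-UT, and its list was widely marked, with 70, 71 and 72 genes in WT-UT, WT-HG and KO-UT. Of 104 oxidative phosphorylation genes 3 were reached (2.88%). These were Uqcr10 of complex III (479, in the window of Zmat5), the complex II assembly factor Sdhaf3 (439) and Ndufa6 of complex I (250.4). Sdhaf3 was unmarked in both other lists. Of 358 solute carriers, 9 were reached (2.51%), with areas from 230.0 (Slc37a1, in the window of Rsph1) to 733 (Slc4a2, an anion exchanger). Slc27a6, a fatty acid transport protein, had an area of 284 and no WT-UT peak within 103044 bp, and it was unmarked in both other lists. Slc29a1, a nucleoside transporter, had an area of 538 and was marked in all lists.

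Neuronal, matrix and immune lists had 1 to 3 genes each, at shares on both sides of the 2.05% background. Gabrb1 had 2 regions (495 and 326), Gabbr1 one (484) and Adra2c one (322), which made 3 of 89 neurotransmitter receptors (3.37%), against 14 in KO-UT-only and 20 in shared regions. Of 134 ion channel genes Kcnip2 (486) and Kcng2 (229) were reached (1.49%), against 18 and 29. Of 53 collagen and laminin genes Lamb2 (219.7), Col6a3 (216) and Col11a1 (201) were reached (5.66%), and Col6a3 was unmarked in both other lists. Cdh4 (379) was the 1 of 100 cadherins and protocadherins, and Adamts10 (257) the 1 of 110 integrins and matrix proteases. Irf3 (387, in the window of Bcl2l12) and Rigi (252), sensors and effectors of the interferon response, were 2 of 68 (2.94%), and Cxcl12 (319) and Tnfrsf23 (282) were 2 of 154 chemokine, interleukin and receptor genes (1.30%). Sun3, a nuclear envelope protein of the germ line, was the 1 of 43 nuclear envelope genes (area 210.1). None of 164 keratin or 1478 olfactory and vomeronasal receptor genes was reached.

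**Figure D4:**
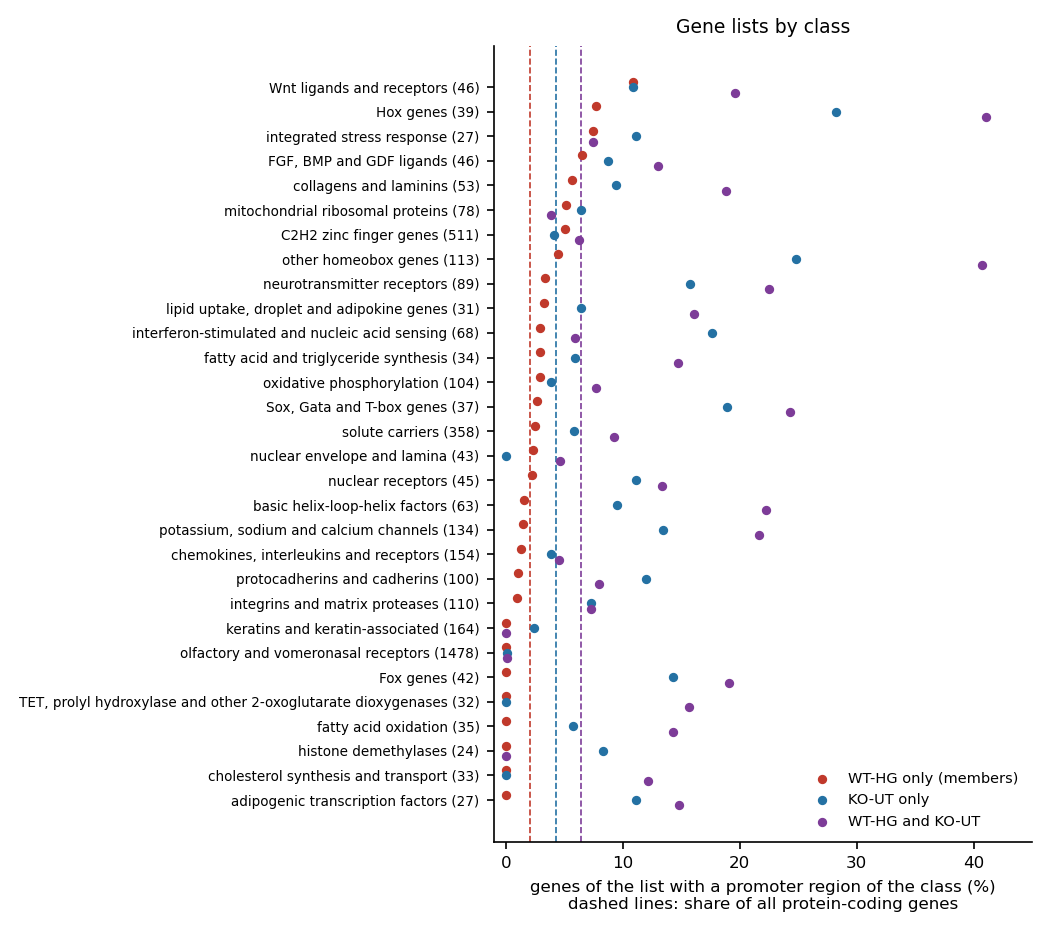
Share of the genes of each list (rows, with the number of genes; lists of at least 20 genes, 1 list left out) that have a promoter region marked in WT-HG only (red, the members), in KO-UT only (blue) or in WT-HG and KO-UT but not WT-UT (purple); dashed lines mark the same shares over all coding genes (2.05%, 4.27% and 6.39%). Wnt genes (10.9%) and Hox genes (7.69%) stand highest for the members, on 5 and 3 genes, and homeobox lists stand highest for the other classes (41.0% of Hox genes in shared regions).

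Sequence and start features were compared with the other 2 classes by two-sided Fisher's exact tests on counts of regions, with Benjamini-Hochberg adjustment over 10 tests. The 2 of these that rest on WT-UT calls, which the selection used, are given as shares alone. Regions were the units and are not replicates of a condition. CpG-rich starts were less frequent among the members, at 180 of 369 (48.8%, 43.7 to 53.9), than among regions shared by WT-HG and KO-UT, at 841 of 1243 (67.7%, 65.0 to 70.2; exact test, adjusted p = 8.1e-10), and than among KO-UT-only regions, at 486 of 853 (57.0%, 53.6 to 60.3; adjusted p = 0.0216). The difference from shared regions was not called among regions with a summit p of at most 1e-05 (a difference of -9.93 points over 61 members; exact test, adjusted p = 0.275). Among promoters marked in all lists the share was 87.4%, and among all 64455 coding start positions 44.8%. The difference from KO-UT-only regions was no longer called with a stricter CpG threshold, with canonical starts only or with lists of equal size, and it reversed to 1.67 points among regions with a summit p of at most 1e-05. Measured over the region in place of the start, the shares were 40.1% of members, 62.4% of KO-UT-only and 74.2% of shared regions. Peak size moved with the class. Among peaks up to the 5th percentile of area, CpG-rich starts made up 43.9% of 164 members, 54.5% of 209 KO-UT-only and 59.3% of 118 shared regions. Between the 5th and 10th percentiles the shares were 50.5%, 53.6% and 64.4%, and between the 10th and 20th 55%, 58.2% and 64.3%. Percentiles are of the KO-UT list for KO-UT-only regions and of the WT-HG list for the others, so equal bins are not equal areas. The part of peak size in the difference was not tested.

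The same feature varied with the neighbourhood. CpG-rich starts made up 101 of the 152 members beside another peak (66.4%, 58.6 to 73.5) and 79 of the 217 away from one (36.4%, 30.3 to 43.0). An alternative chosen after seeing the data left out regions near a peak of a list that does not hold them. It removed 152 of 369 members, 225 of 853 KO-UT-only and 181 of 1243 shared regions. This filter rests on the calls that defined the classes, so the differences that remained are descriptions. The members were then 29.4 points below the shared regions (a difference of -29.4) and 16.3 points below the KO-UT-only regions (-16.3). Median GC content was 58.0% in the 500 bp at the members' starts, 60.6% at KO-UT-only and 62.2% at shared starts.

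A divergent protein-coding start, on the opposite strand and within 1000 bp, was present at 46 members (12.5%), 68 KO-UT-only regions (7.97%; exact test, adjusted p = 0.0360) and 79 shared regions (6.36%; adjusted p = 0.0012). It was found at 29 of the 152 members beside another peak (19.1%) and at 17 of the 217 others (7.83%), and with regions near other peaks left out neither difference was called (exact test, adjusted p = 0.89 and 0.0676). Genes of 79 members (21.4%) had a WT-UT peak at another of their starts, beyond reach of the region, against 139 KO-UT-only (16.3%) and 169 shared regions (13.6%), which is a description, since WT-UT calls defined these classes. Summits lay downstream of the start in 258 members (69.9%), 651 KO-UT-only (76.3%; exact test, adjusted p = 0.0371) and 915 shared regions (73.6%; adjusted p = 0.203), and the first difference was not called away from other peaks (adjusted p = 0.90).

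A TATA motif (TATAAA or TATATA on the strand of transcription, between 40 and 15 bases before the start) was found at 4 members (1.08%), against 1.52% and 1.85% of the other classes (exact test, adjusted p = 0.791 and 0.541) and 1.93% of all coding starts. The GC box GGGCGG, searched on both strands from 250 bases before to 50 after the start, was present at 47.7% of members, 50.3% of KO-UT-only, 61.6% of shared, 69.7% of all-list and 41.3% of all coding starts. CCAAT was present at 38.5% of members and 35.5% of all starts, and the E-box CACGTG at 7.86% and 7.63%. These shares describe the letters of the window and were not tested.

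**Figure D5:**
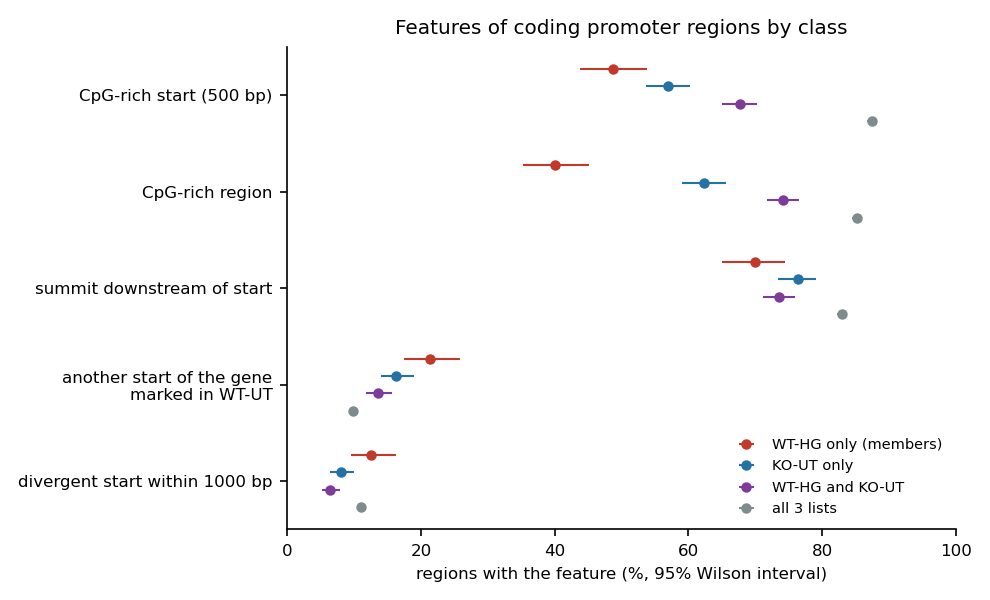
Share of regions with each feature (x axis, percent, with 95% Wilson intervals) for members (red, n = 369), KO-UT-only regions (blue, n = 853), regions in WT-HG and KO-UT but not WT-UT (purple, n = 1243) and regions in all 3 lists (grey, n = 10204). Members have the lowest shares of CpG-rich starts (48.8%) and CpG-rich regions (40.1%).

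Members were found on all 19 chromosomes. Chromosome 7 held 53 (14.4% of members), which was 5.42% of its coding promoter regions, and chromosome 17 held 29 (4.58%), beside 2.86% over chromosomes 1 to 19. Zinc finger regions made up 7 of the 53 and 5 of the 29. Chromosome 1 had the lowest share, with 13 members (1.75%). Besides Zbtb7a with 3 regions, 7 genes had 2 regions within reach: Abca7 and Abcf3, genes of the ABC family, Shmt2, Gabrb1, Cuedc1, Tafa5 and the histone gene H3c1. Abca7, Abcf3 and Shmt2 had no WT-UT or KO-UT peak at any start.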

How the data were processed

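H3K4me3 ChIP-seq of 4 samples per condition was processed by the authors with fastp 0.23.4, BWA 0.7.17 and Genrich 0.6.1 (mm39, per the labels' processing notes), with the condition's input as control and the 4 replicates called together. The deposited peak lists give a score (capped at 1000), a signal value (area under the curve, summed significance over the peak, which is not scaled between lists), the summit −log10 p and the summit offset. The q-value column is -1 throughout, so the lists could not be filtered on q. The stated parameters left out chromosomes X, Y and the mitochondrial genome, yet the lists hold peaks outside chromosomes 1 to 19, and these did not enter the members.

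Peaks overlapping by 1 bp or more were merged, and starts were taken from GENCODE M39 (64526 starts of protein-coding transcripts, 20445 genes). Python 3.11.15, pandas 2.3.3, scipy 1.17.1 and pysam 0.24.0 were used. Planted peaks were recovered in 14 of 14 counts, and 6 of 6 overlap counts equalled those of bedtools 2.31.1. Shares have 95% Wilson intervals. The nearest start is that nearest to the summit of the region's strongest WT-HG peak. For KO-UT-only regions the KO-UT summit was used, so summits in that comparison come from different lists. Genes were named for the 25 largest areas, for gene list membership, for the 3 smallest areas, the 3 widest regions, the 3 nearest to a peak of each other list and the 3 on either side of the window's edge, with additions stated. The members and lists were chosen with earlier results of these data known. Alternatives covered overlap, window, starts, thresholds and list size. A named gene and a gene list are not reported here.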

Additional observations from a re-analysis of the deposited data

Results flagged for a closer look

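Chromosome X lay outside the selection, and 22 protein-coding promoter regions there also had a WT-HG peak and no WT-UT or KO-UT peak. WT-UT-only coding promoter regions numbered 2 on X and 83 on chromosomes 1 to 19. The 22 WT-HG-only regions were 6.01% of 366 coding promoter regions on X, beside 2.86% for WT-HG-only regions on chromosomes 1 to 19. The largest areas were at Dynlt3 (721), a dynein light chain, Pcdh11x (633), a protocadherin with 2 such regions, and Apoo (611), a mitochondrial inner membrane protein. The smallest was at a second region of Pcdh11x (202). Flna, the actin cross-linker filamin A, had an area of 219 and Tmsb4x, an actin-sequestering thymosin, had 2 regions (320.5 and 214). The difference between the chromosomes was not tested.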

How the results depend on the processing

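The lists give no depth, so how far a missing call can be read is limited. No paired analysis was possible because each condition's list pools its 4 replicates, and for the same reason none could be left out. The number of members, 369, became 846 when peaks of different lists had to share at least 50% of both lengths, 211 with peaks within 1000 bp merged, 217 without members near a WT-UT or KO-UT peak, 61 with a summit p of at most 1e-05 and 14 with an area of at least 1000 in WT-HG alone, and 242 with that area in all lists. Under the other 8 settings it stayed within 1.5 times, but lists of equal size by area (270) or summit p (261) held 64 and 56 of the 369, and a summit p of at most 1e-05 in all lists (314) held 61.

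Differences in share are members minus the other class, in percentage points. The call for CpG-rich starts held in 7 settings against shared regions and was lost in 1. Against KO-UT-only regions it held in 4, was lost in 3 and reversed in 1. Both counts of held calls include leaving out regions near a peak of another list, which rests on the calls that defined the classes. Divergent starts kept their call in 3 and lost it in 3 against each class. Downstream summits against KO-UT-only kept it in 2 and lost it in 4. A tally of 39 of 62 comparisons kept also counts differences not called in the main setting and the untested share with another start in WT-UT. Among regions with a summit p of at most 1e-05, where 61 members remained, CpG-rich starts reversed against KO-UT-only regions (1.67) and were not called against shared ones (-9.93), nor were downstream summits (-9.75) against KO-UT-only and divergent starts (8.34 against KO-UT-only, 6.06 against shared). With lists of equal size by area the call was lost for CpG-rich starts (-2.70) and downstream summits (-7.80) against KO-UT-only, and TATA motifs reversed (0.807 against KO-UT-only, 1.5 against shared). With peaks within 1000 bp merged it was lost for downstream summits (-2.67) against KO-UT-only and divergent starts (1.59 and 3.30), and TATA motifs reversed against shared regions (0.157). A stricter CpG threshold gave -2.35 for CpG-rich starts against KO-UT-only, not called. In 2 settings chosen after seeing the data, leaving out regions near a peak of another list lost downstream summits (-1.72) against KO-UT-only and divergent starts (1.31 and 3.69), and canonical starts alone lost CpG-rich starts against KO-UT-only (-1.89) and made downstream summits differ from shared regions (-8.32). The share with another start in WT-UT, a description, differed by 6.19 (KO-UT-only) and 4.78 (shared) at that summit p and by 5.01 and 4.72 with lists of equal size, and canonical starts give no value for it. The causes were not tested.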
